A study of Saccharomyces cerevisiae with 35 samples.

Results

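The 10 genes described here serve the synthesis, salvage and uptake of thiamine (vitamin B1) in budding yeast: THI4, THI5, THI11, THI12, THI13, THI20, THI6, THI7, PHO3 and THI2. They were taken by systematic name from the count tables and are 10 of 12131 counted features, of which 6575 are nuclear ORFs. RNA from whole colonies was sequenced in 35 libraries of 9 groups, and all strains derive from F45, a MATa haploid that carries ho∆0::hphMX6 and SPS2:EGFP:natMX4 and has an unmapped serine auxotrophy. Colonies had grown for 4 d on plates with glucose, and several colonies were pooled for each library. Batch 1 held 4 libraries each of euploid F45, a chromosome XV disome, a chromosome XVI disome, a chromosome XVI disome hemizygous for DIG1 (dig1Δ::kanMX4/DIG1), F45 with the empty plasmid pRS41K, and F45 with a low copy plasmid that carries DIG1 (DIG1-pFA6a-KanMX4). The study's strain list names these as different plasmids, and whether they share a backbone was not given in the sources used here. Batch 2 held 3 libraries of F45 and 4 each of cis3Δ0::kanMX4 and flo11Δ0::kanMX4 strains. F45 forms structured, "fluffy" colonies. The XV disome, the XVI disome with both DIG1 copies and the DIG1 plasmid strain form smooth ones. Colonies of the hemizygous strain are fluffy at the rim and smooth in the centre. According to the study, cis3Δ and flo11Δ colonies lose the structure but keep uneven edges. Each disome and plasmid strain is a single strain, whereas each deletion is represented by 2 strains with 2 libraries each. DIG1 codes for a repressor in the mating and filamentous growth pathways, and CIS3 and FLO11 code for cell wall proteins.

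Thiamine diphosphate is the cofactor of pyruvate decarboxylase, transketolase and pyruvate dehydrogenase. Yeast builds it from a thiazole, made by Thi4, and a pyrimidine, made by Thi5 and its near copies Thi11, Thi12 and Thi13 from pyridoxal phosphate and histidine. Thi20 phosphorylates the pyrimidine, and Thi6 joins pyrimidine and thiazole. Thi7 imports thiamine, the acid phosphatase Pho3 frees it from its phosphates outside the cell, and Thi2 is an activator of these genes, which are repressed when thiamine is ample.

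The 10 genes were chosen by their measured changes in these libraries. Which contrast was used is not recorded, and those of the disomes, and of the hemizygous strain built on a disome, with F45 are treated as the ones that chose the genes, so values there are given as a description without a test.

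THI4 (YGR144W) lies at chrVII:780399-781379 on the plus strand, THI7 (YLR237W) at chrXII:612367-614163 on the plus strand, and THI2 (YBR240C) at chrII:700490-701842 on the minus strand. THI20 (YOL055C) lies on chromosome XV at chrXV:224420-226075 and THI6 (YPL214C) on chromosome XVI at chrXVI:148569-150191, both on the minus strand, so that THI20 was doubled in the XV disome and THI6 in the XVI disome. PHO3 (YBR092C) at chrII:427698-429101 on the minus strand is next to PHO5, an acid phosphatase gene that is repressed by phosphate. The 4 pyrimidine genes are subtelomeric. THI5 (YFL058W) lies at chrVI:12929-13951, THI12 (YNL332W) at chrXIV:14832-15854 and THI13 (YDL244W) at chrIV:16204-17226, all on the plus strand, and THI11 (YJR156C) at chrX:728574-729596 on the minus strand. These are coding regions, with the start and end the count tables give on R64-1-1. All 10 matched the reference annotation of build R64 in symbol, start and end.

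In the reference genome, THI5, THI11, THI12 and THI13 differ at 27 of 1023 coding positions in all. Pairs of them differ at 7 (THI5 and THI12) to 23 (THI12 and THI13) positions. A stretch of 80 coding bases, positions 401 to 480 counted from the start codon's first base, shows how little separates the copies. Its 7 variable positions are in capitals.

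THI5, chrVI:13329-13408, plus strand: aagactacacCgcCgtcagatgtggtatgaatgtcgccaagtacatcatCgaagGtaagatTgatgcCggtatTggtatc
THI12, chrXIV:15232-15311, plus strand: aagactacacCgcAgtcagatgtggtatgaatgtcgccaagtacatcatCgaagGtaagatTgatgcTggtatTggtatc
THI11, chrX:729117-729196, minus strand: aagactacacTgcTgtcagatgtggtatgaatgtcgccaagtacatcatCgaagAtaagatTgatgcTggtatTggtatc
THI13, chrIV:16604-16683, plus strand: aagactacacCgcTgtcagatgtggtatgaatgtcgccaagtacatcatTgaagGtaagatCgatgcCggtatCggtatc

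Of the windows of 51 bases in each gene, the read length of batch 1, only 150 of 973 occur once in the reference genome for THI5, 209 for THI11, 291 for THI12 and 395 for THI13. With 75 bases, the read length of batch 2, the numbers are 249, 345, 379 and 503 of 949. Reads that fit several copies were placed on 1 of them, since no filter on mapping quality was used, so the counts of the single copies are uncertain and their sum is given beside them. How many copies F45 itself carries was not examined here. All windows of THI4, THI2, THI20 and THI6 occur once.

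Upstream of the start codon in the reference genome, the 4 copies fall into pairs. Their sequences in F45, which the study reports as diverged from the reference, were not examined here. THI11 and THI13 are identical over 300 bases, THI5 and THI12 differ at 1 base, and the pairs differ from each other at 15 or 16 bases. The 2 sequences below run from 299 or 300 to 101 bases before the start codon, read on the strand of the gene, with the 12 differing bases of their alignment in capitals, 1 of them a base that the THI5 and THI12 sequence lacks.

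THI5 (chrVI:12630-12828, plus strand) and THI12 (chrXIV:14533-14731, plus strand): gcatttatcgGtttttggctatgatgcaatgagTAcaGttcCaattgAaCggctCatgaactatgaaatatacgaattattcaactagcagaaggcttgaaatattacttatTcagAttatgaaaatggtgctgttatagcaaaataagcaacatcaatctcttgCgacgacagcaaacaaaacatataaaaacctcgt
THI11 (chrX:729697-729896, minus strand) and THI13 (chrIV:15904-16103, plus strand): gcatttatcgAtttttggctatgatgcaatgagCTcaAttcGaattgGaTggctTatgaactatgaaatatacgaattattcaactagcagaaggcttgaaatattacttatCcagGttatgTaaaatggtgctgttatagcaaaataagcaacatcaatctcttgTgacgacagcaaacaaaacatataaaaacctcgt

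In the reference genome, the neighbours on the upstream side pair in the same way. THI5 follows SNZ3 after 669 bases and THI12 follows SNZ2 after 668 bases, both genes of vitamin B6 synthesis, whereas THI11 and THI13 are 2843 bases from the hexose transporter genes HXT16 and HXT15.

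Libraries held 6503076 to 37823857 counted read pairs in batch 1 and 11565108 to 25104790 in batch 2. The empty plasmid libraries, with at least 18375753, were deep beside the others of batch 1, which had at most 23575279. Values are given as normalized CPM, counts per 1000000 of the library's nuclear ORF counts, scaled by edgeR's TMM factors and without chromosomes XV and XVI in batch 1, so levels are not set against each other across batches. The targeted genes followed the labels. DIG1 was at 137 ± 11.3 (SD, n = 4) CPM in the chromosome XVI disome, at 60.2 ± 4.69 in the hemizygous strain and at 304 ± 10.8 with the DIG1 plasmid, against 68.4 ± 4.09 in F45, and CIS3 and FLO11 were near 0 in their deletions. The summed level of 6 MATa-specific genes moved with the groups. It was 619.5 to 685 CPM in F45 of batch 1, 804 to 883 with the empty plasmid, 351 to 489 with the DIG1 plasmid, 269.7 to 319 in the hemizygous strain, 247 to 311 in the XVI disome and 197 to 218 in the XV disome. In batch 2 it was 693 to 808 CPM in F45, 577 to 632 in cis3Δ and 490.1 to 559.96 in flo11Δ. Its part in the results was not tested. Of the MATα genes, the pheromone genes MF(ALPHA)1 and MF(ALPHA)2 were at 3.85 CPM or less in every library, while STE3 reached 36.9 and SAG1 104 CPM. Nothing says that the libraries of a group came from separately started cultures, so p-values measure the spread between libraries. In whole colonies, fewer cells that express a gene and less RNA per cell cannot be told apart.

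**Figure D1:**
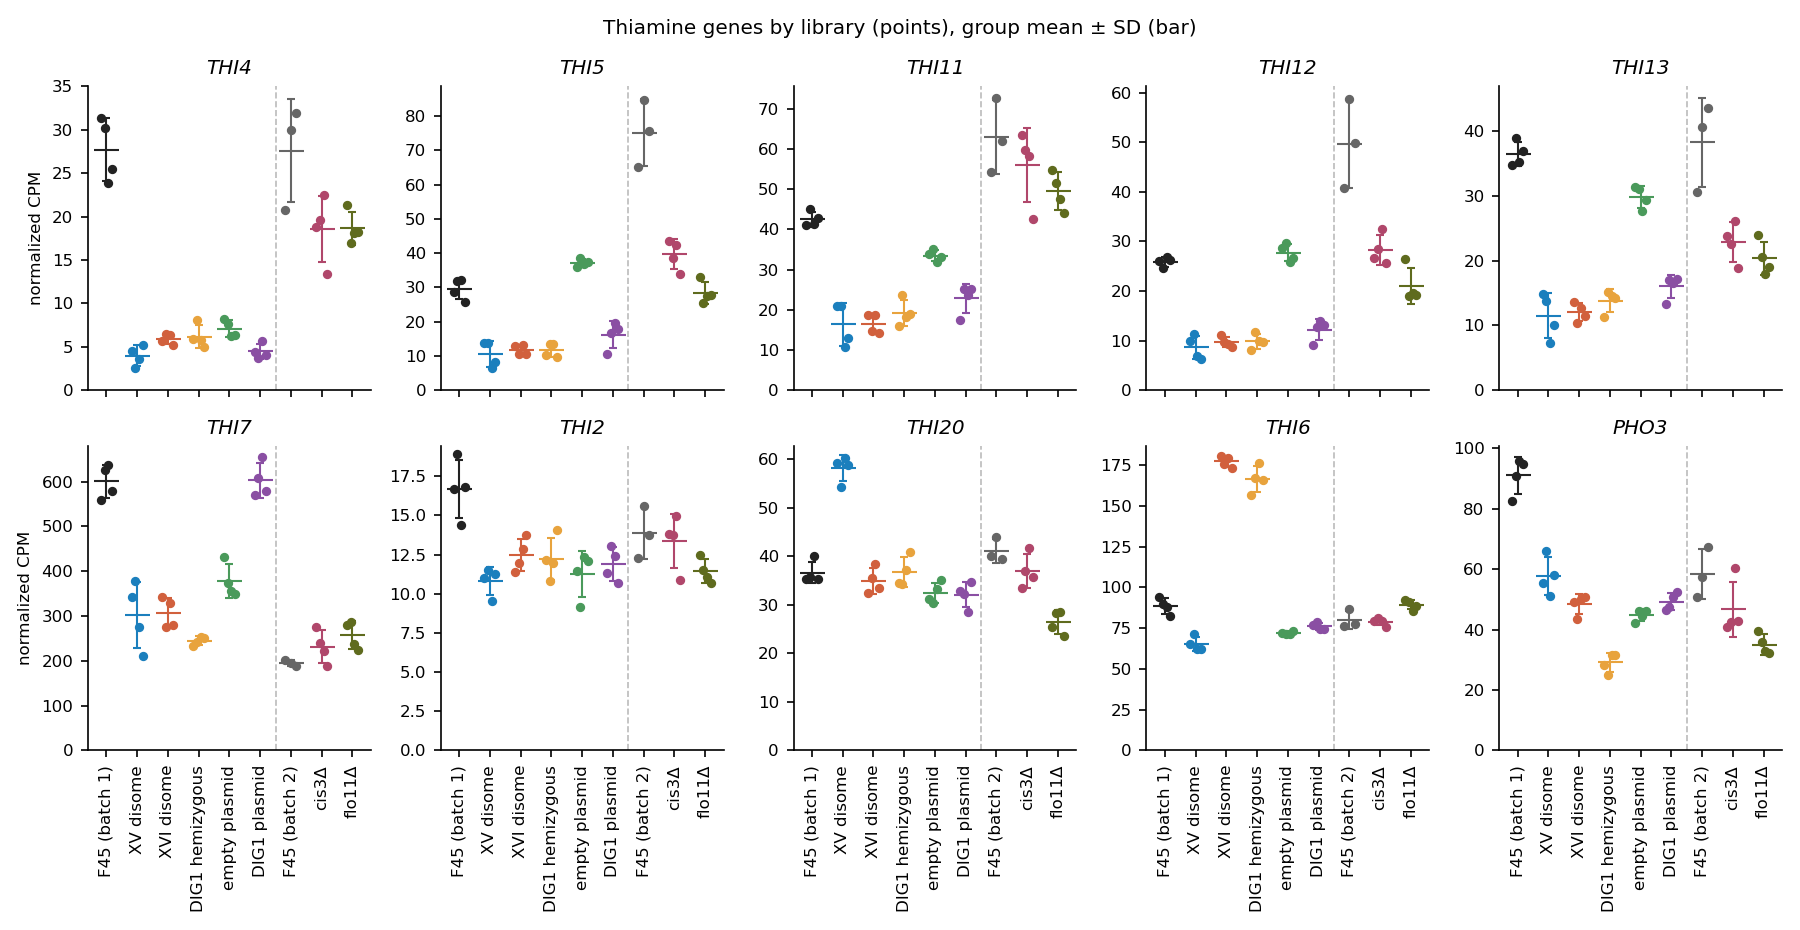
Normalized CPM of the 10 genes in each library (points), with the group mean and SD (bar), on linear axes from 0. The dashed line separates batch 1 from batch 2. THI4 stands at 23.9 to 31.3 CPM in F45 of batch 1 and at 8.23 CPM or less in every other library of that batch, whereas the ranges of THI7 overlap between F45 and the DIG1 plasmid strain.

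All 10 genes were lower in the chromosome XV disome than in F45, with no overlap of libraries, once THI20 was counted per copy of its doubled chromosome. Both strains with a doubled chromosome XVI had 9 of the 10 that did not overlap with F45 as measured, THI6 above it and the others below, and 8 per copy. Of all features tested, 54.2%, 54.1% and 57.1% had libraries that did not overlap in these contrasts, as measured without division by copies. Nothing is read from these contrasts, which were used to choose the 10 genes. Their median log2 fold change relative to F45 was −1.21 in the chromosome XV disome, −1.15 in the XVI disome and −1.31 in its DIG1-hemizygous derivative, against −0.05, −0.02 and −0.04 over all features. Those medians count the 4 near copies singly. With the copies summed to 1 feature they were −0.66 and −0.92 in the XV and XVI disomes. THI4 had the lowest log2 fold change in each of the 3 strains, and THI20 and THI6 had those nearest to 0.

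In the tested comparisons, a gene was called changed at an adjusted p under 0.01 from edgeR's quasi-likelihood test with Benjamini-Hochberg adjustment over 8097 features in batch 1 and 8059 in batch 2. All 10 genes passed the filter on low counts in both batches. With the DIG1 plasmid, 5 of the 10 fell relative to the empty plasmid, where 15.2% of all features were called lower, and 1 rose, where 12.7% were called higher. The 5 are THI4 and the 4 near copies counted singly. With the copies summed, 2 of 7 features fell and 1 rose. Relative to F45, 5 of the 10 were lower with the empty plasmid (background 20.2%) and none higher (19.3%). The F45 libraries of batch 1 also entered the contrasts that chose the genes, so lower values in this comparison are not independent of that choice, and its counts and p-values, here and for each gene, are given as a description. Between the disomes, 2 were higher in the chromosome XVI disome (19.7%) and 1 was lower (19.4%). In the hemizygous strain 1 of the 10 was lower than in the chromosome XVI disome (10.4%) and none was higher (9.76%). The libraries of the disomes and of the hemizygous strain also entered the contrasts that chose the genes. The counts and p-values of these comparisons, here and for each gene, are therefore given as a description too.

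In batch 2, THI5 and THI12 fell in cis3Δ, where 0.186% of features were called lower and 0.136% higher. Both had been singled out in flo11Δ before, against the same F45 libraries, and with the copies summed none of the 7 features was called, so nothing is read from this count. In flo11Δ, 5 fell relative to F45 (13%) and none rose (12.4%), and 2 were lower than in cis3Δ (12.7%) and none higher (12.8%). With the copies summed, 3 of 7 features fell in flo11Δ relative to F45 and 1 relative to cis3Δ. THI5 and THI12 entered these flo11Δ counts, singly or in the sum, so the counts are given as a description. The plasmid comparisons share the empty plasmid libraries, the disome comparisons the XVI disome libraries, and the comparisons of batch 2 share each of its groups, so values are set side by side without counting overlaps between them.

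Except between the disomes, where both were equal in number, libraries that did not overlap were more common than calls. They were found for 8 of the 10 genes with the DIG1 plasmid (37.1% of all features), 9 with the empty plasmid (47.2%), 2 in the hemizygous strain against the XVI disome (28.8%), 3 between the disomes (47.5%), 3 in cis3Δ (16.6%), 6 in flo11Δ (44.6%) and 4 between the deletions (38.3%).

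**Figure D2:**
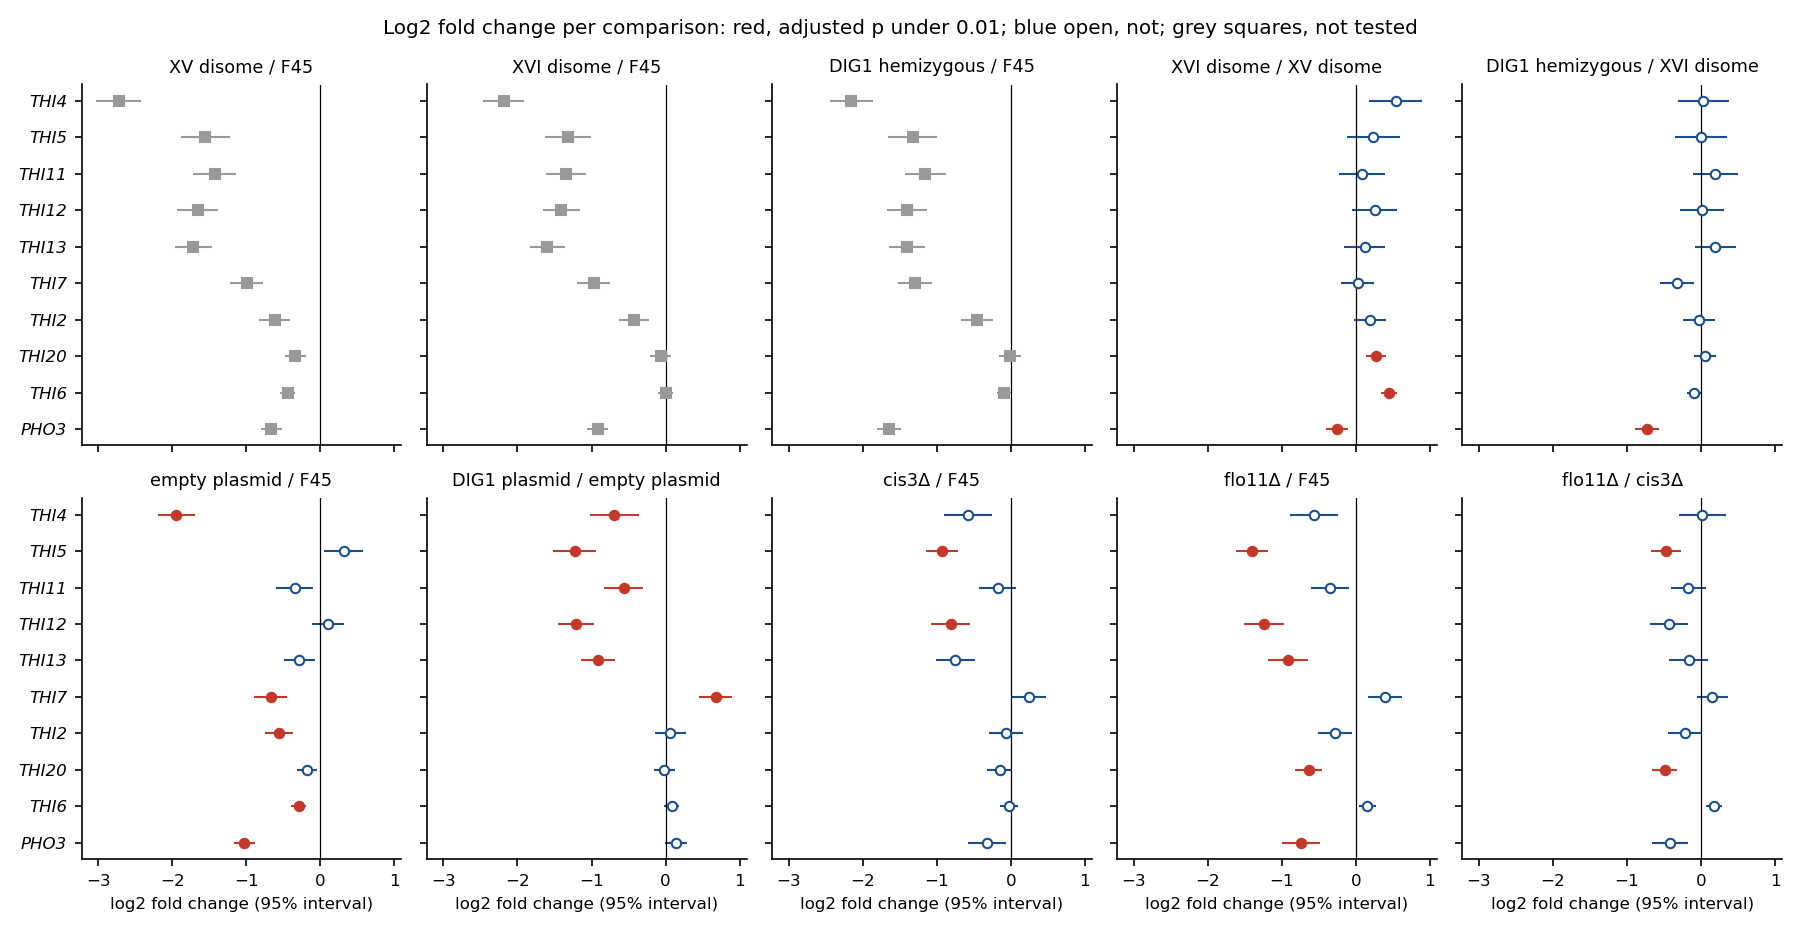
Log2 fold change of each gene (horizontal axis, with its 95% interval) in 10 comparisons, THI20 and THI6 per chromosome copy; red filled points had an adjusted p under 0.01, blue open points did not, and grey squares were not tested. THI4 is the lowest point in both disomes, and the 4 pyrimidine genes lie between −0.35 and 0.31 with the empty plasmid and between −1.22 and −0.57 with the DIG1 plasmid.

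THI4 codes for the thiazole synthase, a protein that gives up its own sulfur atom and so works only once. It was at 31.3, 30.2, 23.9 and 25.5 CPM in the F45 libraries of batch 1. The chromosome XV disome had 4.52, 2.55, 3.55 and 5.27 CPM, and the chromosome XVI disome 5.65, 6.51, 6.39 and 5.23 CPM. The lowest of these values rests on 19 read pairs. Thus no disome library came near F45, with log2 fold changes of −2.73 ± 0.16 (SE) in the XV and −2.19 ± 0.14 in the XVI disome.

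THI4 was low in every other group of batch 1 as well. The hemizygous strain had 5.85, 8.06, 5.82 and 4.98 CPM, the empty plasmid control 8.23, 7.60, 6.26 and 6.31 CPM, and the DIG1 plasmid strain 4.39, 3.72, 5.65 and 4.11 CPM. Below F45, each group overlapped with the next in the order of levels. THI4 fell by 1.95 ± 0.13 on the log2 scale with the empty plasmid relative to F45 (adjusted p = 1.21e-12), a 3.86-fold difference between euploid strains that rests on F45 libraries used in choosing the gene. The DIG1 plasmid strain was lower than the empty plasmid strain, at a log2 fold change of −0.69 ± 0.17 (adjusted p = 0.00162), and the groups did not overlap. DIG1 and other differences between the plasmids cannot be told apart in this comparison. The hemizygous strain was at 0.03 ± 0.17 relative to the chromosome XVI disome (95% interval −0.31 to 0.37, adjusted p = 0.916).

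In batch 2, THI4 was at 20.8, 30.0 and 31.9 CPM in F45, at 18.8, 19.6, 22.5 and 13.4 CPM in cis3Δ and at 21.4, 17.0, 18.1 and 18.2 CPM in flo11Δ. The low F45 library overlapped with both deletions. The log2 fold changes of −0.58 ± 0.17 in cis3Δ (adjusted p = 0.0609) and −0.57 ± 0.17 in flo11Δ (adjusted p = 0.0162) did not pass the threshold. Without that F45 library the flo11Δ value was −0.73 with an adjusted p of 0.00314, and over all alternatives the adjusted p ran from 0.00314 to 0.122.

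The 4 pyrimidine genes are described first by their sum. It was 130.2, 140.2, 135 and 132 CPM in the F45 libraries of batch 1 and 129.7, 134, 122 and 127 CPM with the empty plasmid, which overlapped. The DIG1 plasmid libraries had 50.6, 71.7, 73.7 and 73.4 CPM, all well below both. The chromosome XVI disome had 56.3, 45.3, 53.7 and 45.2 CPM and the hemizygous strain 45.6, 64.1, 56.1 and 52.8 CPM. The chromosome XV disome had 59.7, 59.7, 31.5 and 37.7 CPM. Its range thus contained that of the chromosome XVI disome, and all 3 strains lay below F45.

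As 1 feature, the sum fell by 0.94 ± 0.13 on the log2 scale with the DIG1 plasmid relative to the empty plasmid (adjusted p = 2.22e-06, edgeR quasi-likelihood test). Each copy was also called. THI5 was at 35.8 to 38.4 CPM with the empty plasmid and 10.7 to 19.6 CPM with the DIG1 plasmid, THI12 at 25.9 to 29.6 and 9.08 to 14.0 CPM, THI13 at 27.7 to 31.4 and 13.3 to 17.1 CPM, and THI11 at 31.8 to 35.1 and 17.5 to 25.1 CPM, none of which overlapped. THI5 changed by −1.22 ± 0.15 and THI12 by −1.21 ± 0.12, THI13 by −0.92 ± 0.12 and THI11 by −0.57 ± 0.14 (adjusted p = 0.00143). Without the lowest DIG1 plasmid library THI11 was at −0.44 with an adjusted p of 0.0144 (range over alternatives 0.000315 to 0.0144) and was no longer called, whereas THI5, THI12 and THI13 were called without any 1 library. Relative to F45, the empty plasmid strain had a log2 fold change of −0.07 ± 0.13 in the sum (95% interval −0.32 to 0.18, adjusted p = 0.675). THI4 was thus called in that comparison and the sum was not, and the difference between them was not tested.

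In the hemizygous strain the sum was at 0.12 ± 0.14 relative to the chromosome XVI disome (95% interval −0.16 to 0.40, adjusted p = 0.583), and the XVI disome was at 0.13 ± 0.14 relative to the XV disome (−0.16 to 0.41, adjusted p = 0.488). Neither passed the threshold. The disome libraries in these comparisons also entered the contrasts that chose the genes.

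In batch 2, the sum was 191, 256 and 231 CPM in F45, 157, 149, 159 and 121 CPM in cis3Δ and 138, 117, 113 and 110.3 CPM in flo11Δ. Both deletions lay below every F45 library and overlapped with each other. The sum fell by 0.92 ± 0.12 on the log2 scale in flo11Δ (adjusted p = 6.15e-05). Its change of −0.62 ± 0.12 in cis3Δ did not pass the threshold (adjusted p = 0.0201). The sum holds THI5 and THI12, which had been singled out in the flo11Δ libraries before, so these values are given as a description.

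The copies are given singly next, with the limit on shared reads above. THI5 was at 65.0, 84.6 and 75.6 CPM in F45, at 43.6, 38.7, 42.5 and 33.9 CPM in cis3Δ and at 32.95, 25.4, 27.6 and 27.8 CPM in flo11Δ, which are 3 ranges without overlap. It changed by −0.93 ± 0.11 in cis3Δ (adjusted p = 0.00103), by −1.40 ± 0.11 in flo11Δ (adjusted p = 2.62e-06) and by −0.47 ± 0.11 between flo11Δ and cis3Δ (adjusted p = 0.00313). THI12 also fell, by 0.81 ± 0.13 in cis3Δ (adjusted p = 0.00986) and by 1.24 ± 0.14 in flo11Δ (adjusted p = 2.11e-05), and THI13 fell by 0.92 ± 0.14 in flo11Δ (adjusted p = 0.000184). THI11 overlapped among the 3 groups, at 54.3 to 72.6 CPM in F45, 42.7 to 63.5 CPM in cis3Δ and 44.1 to 54.8 CPM in flo11Δ, and was not called.

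The cis3Δ calls rested on few libraries. THI12 was not called without the third library of F45 or without the first, the second or the fourth of cis3Δ, with adjusted p from 0.0152 to 0.0437 (range over alternatives 5.13e-06 to 0.190). In a fit of only those groups neither gene was called (THI5, adjusted p = 0.0163, range 1.59e-11 to 0.0168). THI13 was at −0.75 ± 0.13 in cis3Δ (adjusted p = 0.0163), and its range over alternatives was 7.99e-05 to 0.190. The call of THI5 between the deletions was lost without the second, the third or the fourth flo11Δ library or the first or the third cis3Δ library, with adjusted p from 0.0103 to 0.0125 (range 0.000317 to 0.0502). As THI5 and THI12 had been singled out in the flo11Δ libraries before, their calls in any comparison of batch 2 are not independent support.

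The upstream sequences of the reference pair THI5 with THI12 and THI11 with THI13. The counts of the first pair were therefore divided by those of the second in each library. This ratio was chosen after the values were seen and is a description. It was 0.988, 1.03, 1.05 and 1.03 in the empty plasmid libraries and between 0.588 and 0.838 in the 20 other libraries of batch 1, F45 included at 0.651 to 0.772. The empty plasmid thus stood apart from its own parent strain in the balance of the copies while the sum overlapped. In batch 2, F45 was at 1.25, 1.27 and 1.19, cis3Δ at 0.803, 0.816, 0.888 and 0.968, and flo11Δ at 0.756, 0.617, 0.718 and 0.746, again without overlap. F45 itself differed between the batches, whose read lengths differ. The empty plasmid libraries had 18375753 to 37823857 read pairs and the others of batch 1 at most 23575279, and the part of depth, read length and read placement in this ratio was not tested. Of the genes upstream, SNZ3 rose with the empty plasmid by 0.34 ± 0.08 on the log2 scale (adjusted p = 0.000705) and SNZ2 by 0.32 ± 0.10 (adjusted p = 0.00864), and neither was called in the deletions or with the DIG1 plasmid. The call of SNZ2 was lost with DESeq2 (adjusted p = 0.0129), with TMM factors applied to total counts (0.0114) and without the filter on low counts (0.0113). How far SNZ2 and SNZ3 share reads was not examined here, so their rises may not be separate.

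**Figure D3:**
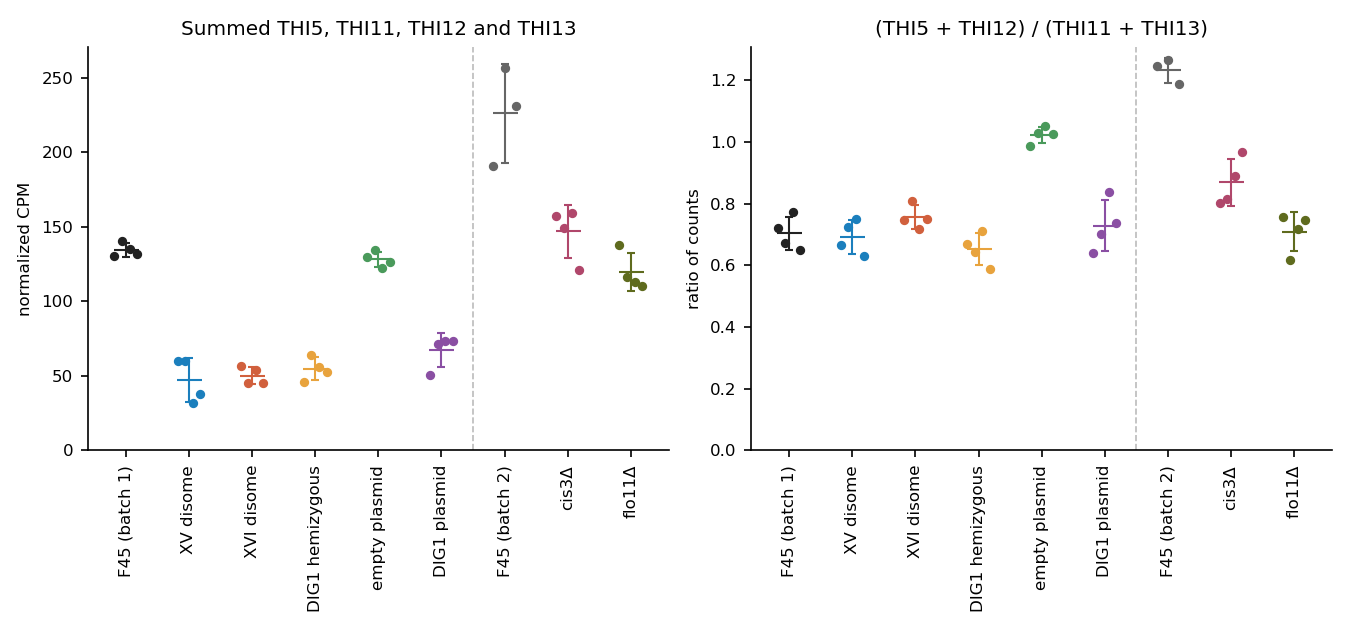
Left, the summed normalized CPM of THI5, THI11, THI12 and THI13 in each library (points) with group mean and SD; right, the ratio of counts of THI5 and THI12 to those of THI11 and THI13, both axes linear from 0. The empty plasmid control sits with F45 in the sum (122 to 134 CPM against 130.2 to 140.2 CPM) but above it in the ratio.

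THI20 and THI6 act after both precursors are made, THI20 as a kinase of the pyrimidine and THI6 as the enzyme that joins pyrimidine and thiazole. THI20 was at 59.3, 54.3, 60.3 and 58.8 CPM in the chromosome XV disome, which carries 2 copies of it, and at 35.4, 35.8, 40.0 and 35.4 CPM in F45. Per copy, the disome was at 29.1 ± 1.32 (SD, n = 4) CPM. Before the adjustment for copies, THI20 differed from F45 by 0.66 on the log2 scale, and per copy by −0.34 ± 0.07.

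THI6 was at 181, 176, 179.5 and 173 CPM in the chromosome XVI disome and at 157, 167, 176 and 166 CPM in the DIG1-hemizygous one, both with 2 copies, against 93.8, 89.7, 87.9 and 82.2 CPM in F45. Per copy that is 88.6 ± 1.67 and 83.2 ± 3.95 CPM against 88.4 ± 4.82 CPM, ranges that overlap. Relative to F45 the unadjusted log2 fold changes were 1.00 and 0.91. In the chromosome XV disome, where THI6 is single, it had 65.2, 71.4, 62.1 and 62.2 CPM, below every F45 library.

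Set against each other per copy, the disomes differed in both genes. Their libraries also entered the contrasts that chose the genes, so the values are given as a description. THI6 was higher in the chromosome XVI than in the XV disome by a log2 fold change of 0.45 ± 0.05 (adjusted p = 5.39e-08), and THI20 by 0.27 ± 0.07 (adjusted p = 0.00194). The direction for THI20 depends on the adjustment for copy number, without which it was −0.73, and THI6 was at 1.45. Its call was also lost without the third chromosome XVI disome library (adjusted p = 0.0194, the highest among its alternatives, and 5.68e-10 without the adjustment the lowest).

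**Figure D4:**
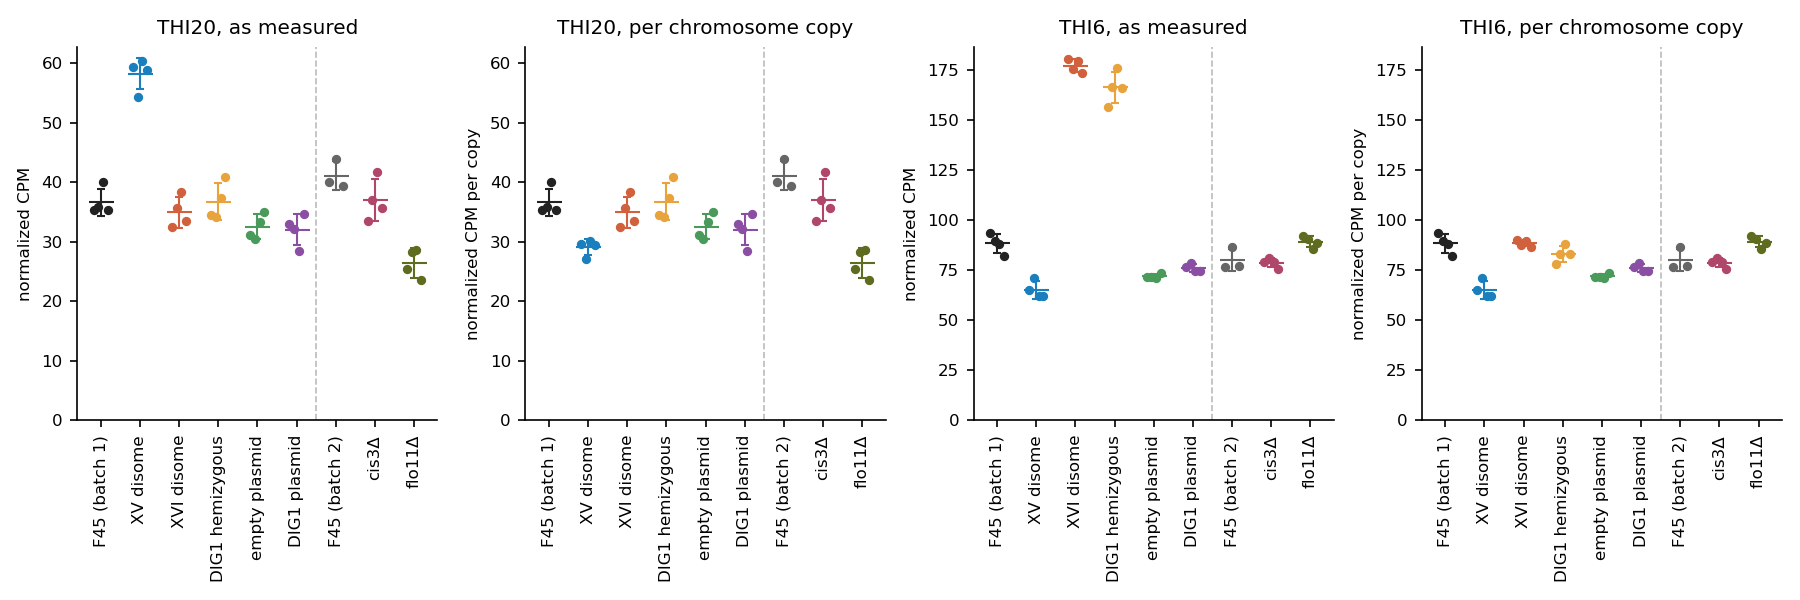
Normalized CPM of THI20 (left pair of panels) and THI6 (right pair) in each library, as measured and divided by the number of copies of their chromosome, with group mean and SD and axes from 0. As measured, THI20 stands out in the XV disome and THI6 in the strains with a doubled XVI. Per copy THI6 is at 88.6 CPM in the XVI disome and 88.4 CPM in F45, and THI20 is lowest in the XV disome of batch 1.

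Among euploid strains, THI6 fell by 0.30 ± 0.05 on the log2 scale with the empty plasmid relative to F45 (adjusted p = 2.51e-05), and neither gene was called with the DIG1 plasmid. THI20 was at 40.0, 43.9 and 39.4 CPM in F45 of batch 2, at 33.5, 36.9, 41.7 and 35.7 CPM in cis3Δ and at 25.3, 28.3, 28.6 and 23.5 CPM in flo11Δ. The flo11Δ libraries lay below all others. THI20 fell by 0.64 ± 0.09 in flo11Δ relative to F45 (adjusted p = 0.000126) and by 0.49 ± 0.09 relative to cis3Δ (adjusted p = 0.000633, over alternatives 6.67e-06 to 0.0103, the highest with only the flo11Δ strain YO2085). THI6 kept within 75.8 to 92.0 CPM in all libraries of batch 2 and was not called there.

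THI7, the plasma membrane thiamine transporter, was the most abundant of the genes, at 334 normalized CPM per kb of coding sequence in F45 of batch 1 against 12.3 for THI2 and 28.3 for THI4. It was at 560.0, 625, 638 and 579 CPM in F45 and at 570.3, 607, 656 and 578 CPM with the DIG1 plasmid, ranges that overlap. The empty plasmid libraries had 432, 373, 356 and 349 CPM. These lay below both groups.

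THI7 rose with the DIG1 plasmid relative to the empty plasmid, by 0.67 ± 0.11 on the log2 scale (adjusted p = 2.64e-05), while THI4 and the pyrimidine genes fell. With the empty plasmid relative to F45 it fell by 0.67 ± 0.11 (adjusted p = 1.74e-05). The chromosome XV disome had 343, 379, 275 and 212 CPM, the chromosome XVI disome 342, 275, 329 and 279.8 CPM and the hemizygous strain 232, 243, 253 and 251 CPM. All were below F45, with log2 fold changes of −0.996 ± 0.11, −0.97 ± 0.11 and −1.29 ± 0.12. The hemizygous libraries lay below those of the chromosome XVI disome, but the change of −0.32 ± 0.11 did not pass the threshold (adjusted p = 0.0315, and 0.00366 in a fit of only those groups, over a range of 0.00366 to 0.108).

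In batch 2, F45 had 201, 195 and 189 CPM, cis3Δ 276, 239, 221 and 189 CPM and flo11Δ 279.98, 287, 237 and 225 CPM. Every flo11Δ library exceeded F45, at a log2 fold change of 0.40 ± 0.12 (adjusted p = 0.0163), which was not called, and over alternatives its adjusted p ran from 0.000552 to 0.198. Its paralogs NRT1 and THI72, 83.8% and 84.2% identical to it in coding sequence, carry few reads that could be shared, since 1721 of 1747 windows of 51 bases in THI7 are unique. NRT1, a nicotinamide riboside transporter gene, rose in flo11Δ by 0.45 ± 0.12 (adjusted p = 0.00856) and THI72 by 0.36 ± 0.09 (adjusted p = 0.00756). Both calls were lost with the likelihood ratio test (adjusted p = 0.0124 and 0.0135) and without the filter on low counts (0.0135 and 0.0129).

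PHO3 was at 82.5, 90.9, 95.8 and 94.9 CPM in F45 of batch 1, at 42.2, 46.2, 44.6 and 46.1 CPM with the empty plasmid and at 46.4, 47.5, 50.8 and 52.3 CPM with the DIG1 plasmid. The plasmid groups did not overlap and both lay below every F45 library. It fell by 1.03 ± 0.07 on the log2 scale with the empty plasmid relative to F45 (adjusted p = 5.15e-12), and the DIG1 plasmid was at 0.14 ± 0.07 relative to the empty plasmid (95% interval −0.01 to 0.28, adjusted p = 0.1502).

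The chromosome XV disome had 55.6, 65.9, 51.01 and 58.1 CPM of PHO3, the chromosome XVI disome 49.1, 43.6, 50.2 and 50.8 CPM and the hemizygous strain 28.4, 24.8, 31.7 and 31.6 CPM. The hemizygous strain was the lowest group of batch 1, and PHO3 is the only one of the 10 genes called there, with −0.73 ± 0.08 relative to the chromosome XVI disome (adjusted p = 3.47e-07). The libraries of both groups entered the contrasts that chose the genes, so this value is given as a description. Between the disomes, PHO3 was lower in the chromosome XVI disome, at −0.25 ± 0.08 (adjusted p = 0.00662). That call was lost without the first or the second library of the XVI disome or the second or the fourth of the XV disome, with adjusted p from 0.0115 to 0.0435 (range over alternatives 0.00204 to 0.0435). In batch 2, PHO3 was at 50.6, 57.4 and 67.2 CPM in F45, 41.0, 42.6, 60.3 and 42.9 CPM in cis3Δ and 39.4, 35.8, 32.8 and 32.1 CPM in flo11Δ. It fell in flo11Δ by 0.74 ± 0.13 relative to F45 (adjusted p = 0.000720) and was not called in cis3Δ (−0.32 ± 0.13, adjusted p = 0.166). With only the flo11Δ strain YO2085, PHO3 was at −0.63 with an adjusted p of 0.0240, the highest of a range that began at 2.93e-06.

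The neighbour PHO5 is 86.6% identical to PHO3 in coding sequence, and 1240 of 1354 windows of 51 bases in PHO3 are unique, so a small part of the reads could be shared. PHO5 went from 895 ± 32.6 (SD, n = 4) CPM in F45 to 170.5 ± 7.31 CPM with the empty plasmid and 45.7 ± 1.91 CPM with the DIG1 plasmid. It changed by −2.39 ± 0.11 with the empty plasmid (adjusted p = 2.71e-16) and by −1.90 ± 0.11 with the DIG1 plasmid (adjusted p = 1.83e-13). PHO3 and PHO5 thus were both called lower with the empty plasmid, and with the DIG1 plasmid PHO5 was called and PHO3 was not. Between the disomes PHO5 was higher and PHO3 lower in the chromosome XVI disome, PHO5 by 1.03 ± 0.12 (adjusted p = 3.17e-08).

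THI2 codes for the activator. It was at 16.7, 18.9, 14.4 and 16.8 CPM in F45 of batch 1 and between 9.17 and 14.0 CPM in the 20 other libraries, so F45 was above all of them. With the empty plasmid it had 11.4, 9.17, 12.4 and 12.1 CPM and fell by 0.56 ± 0.10 on the log2 scale (adjusted p = 3.11e-05). THI2 was called in no other tested comparison, and in batch 2 its groups overlapped at 10.7 to 15.6 CPM.

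The other genes of the pathway, a list of 16 genes of thiamine and linked vitamin B6 metabolism, and 11 genes of enzymes that use thiamine diphosphate, were all above the filter. With the DIG1 plasmid relative to the empty plasmid, 4 of the 16 rose and 1 fell (median log2 fold change 0.06, against −0.05 over all features), and 5 of the 11 enzymes rose and none fell (median 0.19), where 12.7% of all features were called higher and 15.2% lower. SNO1 of vitamin B6 synthesis rose by 1.27 ± 0.15, THI73, a putative permease, by 0.60 ± 0.08, the transketolase gene TKL1 by 0.34 ± 0.06 and ILV2 of branched-chain amino acid synthesis by 0.53 ± 0.11.

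With the empty plasmid relative to F45, 8 of the 16 fell and 2 rose (median −0.23, against 0.00 over all features), and 6 of the 11 enzymes fell (median −0.49), beside backgrounds of 20.2% lower and 19.3% higher. The 2 that rose are SNZ3 and SNZ2, and how far these share reads was not examined. SNO1 fell by 1.42 ± 0.15 and SNZ1 by 1.27 ± 0.15, both of vitamin B6 synthesis, and THI73 by 0.76 ± 0.08. Among the enzymes, the minor pyruvate decarboxylase gene PDC6 changed by −3.99 ± 0.13, the minor transketolase gene TKL2 by −2.92 ± 0.11 and PXP1 by −1.03 ± 0.13.

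Between the disomes, 8 of the 16 were higher in the chromosome XVI disome and none lower (median 0.33, against 0.00 over all features), led by SNO1 at 2.96 ± 0.21, SNZ1 at 1.89 ± 0.17, THI73 at 1.48 ± 0.09 and THI72 at 1.13 ± 0.11 per copy, where 19.7% of all features were higher and 19.4% lower. Without the adjustment for copies 7 were higher and 1 lower. The lower one was THI80, at −1.16 (adjusted p = 1.48e-08, edgeR quasi-likelihood test), and THI22 was called higher, at 1.33. NRT1, on chromosome XV, turned from 0.77 to −0.23 (adjusted p = 0.085). THI72 was at 0.13 (adjusted p = 0.325), and neither was called. Of the 11 enzymes 2 were higher and 3 lower (median 0.02), among them PDC6 at −1.72 ± 0.15 and TKL2 at −1.57 ± 0.11. In the hemizygous strain relative to the chromosome XVI disome, 2 of the 16 were higher, THI21 by 0.34 ± 0.06 and SNZ3 by 0.39 ± 0.09 (median −0.03), and 5 of the 11 enzymes were lower (median −0.35), beside backgrounds of 9.76% higher and 10.4% lower, among them TKL1 at −0.53 ± 0.06 and PDC5 at −0.42 ± 0.07.

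In cis3Δ, the edgeR test called no gene of either list (medians −0.11 and −0.02, against −0.01 over all features). At an unadjusted p under 0.05 there were 2 of the 16 and 4 of the 11. DESeq2, which called 119 features lower and 198 higher here, called 2 and 3 genes, all lower, and the likelihood ratio test 1 and 2. The shares of all features at that unadjusted p and in the likelihood ratio test were not taken, so nothing is read from these counts. In flo11Δ, 2 of the 16 rose (background 12.4%) and 4 fell (13%; median −0.10, against −0.04 over all features), among the latter THI21, a paralog of THI20, at −0.52 ± 0.09 and THI22, a related gene, at −0.63 ± 0.14. Without the filter on low counts none rose and 3 fell. Of the 11 enzymes 2 rose and 2 fell (median 0.08), PDC6 at −1.999 ± 0.27 and ARO10, a decarboxylase gene of amino acid breakdown, at −0.73 ± 0.09. Relative to cis3Δ, 2 of the 16 were higher in flo11Δ (background 12.8%) and 2 lower (12.7%; median −0.03), and 3 of the 11 were higher (median 0.15). NRT1 was higher by 0.67 ± 0.11 and the pyruvate dehydrogenase genes PDB1 and PDA1 by 0.50 ± 0.09 and 0.40 ± 0.08, and THI22 was lower at −0.79 ± 0.13.

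The ORFs whose levels across the 24 libraries of batch 1 were most like THI4, by Pearson's r of log2(CPM + 1) among ORFs with at least 5 CPM, were YKL107W (r = 0.957), AYR1 (0.937), PHM6 (0.935), YER010C (0.931) and YER039C-A (0.923). Over the 11 libraries of batch 2 the same ORFs had r = 0.779, −0.247, 0.709, 0.516 and 0.680 with THI4. For the summed pyrimidine genes they were TMH11 (0.948), AGA2 (0.946), ETR1 (0.946), AAD4 (0.940) and SOA1 (0.934), with −0.462, 0.968, 0.851, 0.248 and 0.790 in batch 2. AGA2 is a MATa-specific agglutinin gene. It had an r of at least 0.946 with the pyrimidine genes in both batches, whereas AYR1 and TMH11 changed sign in batch 2. Libraries of 1 group share a strain, and the points within a batch share its normalization, so these values describe likeness only.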

How the data were processed

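The deposited values are raw counts, read pairs assigned to each feature in stranded TruSeq mRNA libraries. Per the submitters' processing notes and the study's methods, the authors aligned reads with Bowtie2 2.1.0 against build R64 of the reference strain plus genes particular to F45 and counted by strand with featureCounts 1.4.0, with no filter on mapping quality.

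Each batch was fitted on its own in R 4.3.3 with edgeR 4.0.16 (glmQLFit and glmQLFTest, two-sided), with 1 coefficient per group. TMM factors and library sizes came from nuclear ORFs, without chromosomes XV and XVI in batch 1. Features were filtered with filterByExpr, the prior count was 0.125, and the offset carried the 2 copies of doubled chromosomes. SEs were obtained as the absolute log2 fold change over the root of F, and 95% intervals are 1.96 SE either side. Benjamini-Hochberg adjustment ran over all features tested, and calls needed an adjusted p under 0.01. Of 10 comparisons, 7 were tested. The steps were tested on simulated counts with known changes. Sequences came from RefSeq's R64 assembly, read and aligned with Biopython.

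The columns name strains but not the labels' replicate numbers, so libraries are numbered within groups only as names. No 2 libraries of a group agreed within sampling noise. Sequencing depth (6503076 to 37823857 read pairs) sets the counting error, which the SEs include.

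Members and lists were chosen with earlier results of these data known. Named from the lists were called genes past 2-fold and up to 2 per list with the smallest adjusted p, besides neighbours and paralogs. Alternatives were DESeq2 1.42.0, the likelihood ratio test, other scalings, no filter, no copy adjustment, summed copies, fits to the compared groups, and leaving out libraries. A pair was added after seeing the data: a block by column code and single deletion strains.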

Additional observations from a re-analysis of the deposited data

Results flagged for a closer look

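In groups of 4 libraries, 5 values stood apart from the other 3 by more than Dixon's limit, among 88 groups tested, and chance alone marks about 1 in 20. THI12 was at 26.5 CPM in 1 flo11Δ library, against 19.1 to 19.5 CPM in the others. THI13 was at 13.3 CPM in the first DIG1 plasmid library, against 16.5 to 17.1 CPM, and the summed THI5, THI11, THI12 and THI13 were at 50.6 CPM in the same library, against 71.7 to 73.7 CPM. THI20 was at 40.0 CPM in 1 F45 library of batch 1, against 35.4 to 35.8 CPM. PHO3 was at 60.3 CPM in 1 cis3Δ library, against 41.0 to 42.9 CPM.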

How the results depend on the processing

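Over the 10 comparisons, 144 counts or medians under alternative settings stayed near the reported one (counts within 1.5 times) and 26 moved. Counts were compared without regard to direction, so a reversal could be seen only in the medians, where none occurred. Between the disomes without the copy adjustment, 1 gene was higher and 2 lower instead of 2 and 1, which was scored as near. For single genes, 6 alternatives for THI20 and 7 for THI6 were scored as reversed. Any change of sign was scored so in the contrasts with F45 that were not tested. There THI6 was at 0.004 in the XVI disome and −0.09 in the hemizygous strain. Between the disomes, THI6 stayed at 0.42 to 1.45 over its alternatives, whereas THI20 was at −0.73 without the copy adjustment. The numbers of genes called that moved are these, of 10 unless the copies are summed. In a fit of only the groups compared, the empty plasmid against F45 had 8 instead of 5, loss of 1 DIG1 copy 2 instead of 1, and cis3Δ against F45 0 instead of 2. With the 4 copies summed to 1 feature, so that 7 remain, the DIG1 plasmid against the empty plasmid had 3 called instead of 6, flo11Δ against F45 3 instead of 5, cis3Δ against F45 0 and flo11Δ against cis3Δ 1 instead of 2, and the median log2 fold changes of the XV and XVI disomes were −0.663 and −0.917. For flo11Δ against cis3Δ, DESeq2 and the likelihood ratio test both called 4. Leaving out 1 library at a time gave 1 to 3 for cis3Δ against F45 and 1 to 3 for flo11Δ against cis3Δ. With single deletion strains, cis3Δ against F45 had 1 (YO2088) or 0 (YO2089), and flo11Δ against cis3Δ had 0 (YO2085), 1 (YO2086) or 1 (YO2089 only). The causes were not tested, apart from the fewer libraries or features that those settings leave by construction.

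Deviations of libraries with the same column code correlated between −0.45 and 0.506 (median 0.141) in batch 1. In batch 2 they correlated between −0.248 and 0.378 (median 0.0392). Libraries with different codes were not compared in this way, so these ranges cannot tell whether the codes pair the samples. With these codes as a block, 1 instead of 2 genes was called in cis3Δ and 6 instead of 5 in flo11Δ against F45, and the other counts of the 7 tested comparisons were unchanged. Depth limits THI4 most, which had 19 read pairs in 1 library of the chromosome XV disome. Read placement limits the single pyrimidine genes.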
